A study of Mus musculus with 2 samples.

Results

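The stefin A genes of mouse form a tandem family on chromosome 16, and 6 of them were followed here: Stfa1, Stfa2, Stfa2l1, Stfa3, Cstdc4 and Cstdc5. They were taken by symbol, so the members are 6 of the 32285 genes in the count table, and all 6 had counts. The family was selected on these same data, because its transcripts were already known to differ between the conditions and between neutrophil stages, so every difference given for them is a description and none was tested. The cells came from bone-lining preparations sorted for CD11b together with CD68 or F4/80, which the study names osteal macrophages (Omacs), from mice 4 weeks after ovariectomy (OVX), which removes the main source of estrogen, or after a sham operation. Animals of each condition were pooled, each pool was stained with its own hashtag antibody (hashtag 1 for OVX, hashtag 2 for sham), and both pools were run in 1 droplet library, so there was 1 pool per condition and no replicate. The labels give no further treatment and no genotype, and each pool stands for a condition without any measure of the spread between animals.

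Stefins are small cystatins that stay inside the cell and block papain-like cysteine proteases, above all lysosomal cathepsins such as cathepsin B, L, S and H. Human cells have a stefin A gene, CSTA, while in rodents the gene was duplicated several times, and the mouse copies are known as transcripts of maturing neutrophils. Neutrophils mature in the bone marrow from dividing precursors to cells that load secondary granules with lactoferrin (Ltf), cathelicidin (Camp) and neutrophilic granule protein (Ngp), and then to mature cells with CXCR2 and the G-CSF receptor (Csf3r) at the surface. The order of stages used below rests on these transcripts and not on the stefins.

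On the GRCm38 build the members lie between 36156811 and 36455392 of chromosome 16. In that order they are Stfa2l1 (chr16:36156811-36161953), Cstdc4 (chr16:36184212-36188111, also called Gm5483) and Stfa1 (chr16:36276951-36285373) on the plus strand, then Cstdc5 (chr16:36359382-36367748, also called BC100530), Stfa2 (chr16:36403992-36408457) and Stfa3 (chr16:36450537-36455392) on the minus strand. Their Ensembl identifiers, in the same order, are ENSMUSG00000059657, ENSMUSG00000079597, ENSMUSG00000071562, ENSMUSG00000071561, ENSMUSG00000022902 and ENSMUSG00000054905. Another 4 genes of the family, Csta1, Csta2, Csta3 and Cstdc6, lie before or among them. The transcripts of the members are alike where they align, with 65.6% to 97.1% identical bases over the 15 pairs (median 76.8%). Gaps and unaligned ends are left out of these values. Of the 1859 bases of Cstdc4, 370 were aligned with Stfa2. The closest pairs were Stfa1 with Cstdc5 (97.1%) and Stfa2 with Stfa2l1 (95.7%). Reads of a 3′ library come from the end of a transcript, and of the 100-base windows in the last 400 bases, 22.6% of those of Cstdc5 were found unchanged in Stfa1 or Cstdc6 and 9.63% of those of Stfa1 in Cstdc5. None of the end windows of the other 4 members was found in another family gene, but 11.6% of those of the neighbour Csta2 were found in Cstdc4. Counts of Stfa1 are therefore uncertain beside the far more abundant Cstdc5, and a non-coding gene, Gm15845, overlaps 679 bases of Cstdc5 on the opposite strand.

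The 120 bases before the start of each member are given here because the same short stretch recurs in all 6, near the start site. They are RefSeq starts of GRCm38.p6, which had an entry for 6 of 6 members, read 5′ to 3′ on the strand of the gene, and the capitals mark the longest run of bases common to all members (12 bases).
Stfa2l1: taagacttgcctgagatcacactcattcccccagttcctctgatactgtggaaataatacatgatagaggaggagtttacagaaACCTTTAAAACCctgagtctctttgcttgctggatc
Cstdc4: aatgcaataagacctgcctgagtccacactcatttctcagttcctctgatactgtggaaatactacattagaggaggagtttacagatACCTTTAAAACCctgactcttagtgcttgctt
Stfa1: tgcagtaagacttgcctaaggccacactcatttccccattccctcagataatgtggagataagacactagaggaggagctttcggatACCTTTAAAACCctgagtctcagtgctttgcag
Cstdc5: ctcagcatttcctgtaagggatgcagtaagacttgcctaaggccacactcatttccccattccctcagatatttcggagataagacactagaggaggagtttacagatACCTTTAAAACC
Stfa2: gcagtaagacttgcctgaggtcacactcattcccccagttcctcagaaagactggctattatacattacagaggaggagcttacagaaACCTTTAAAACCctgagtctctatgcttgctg
Stfa3: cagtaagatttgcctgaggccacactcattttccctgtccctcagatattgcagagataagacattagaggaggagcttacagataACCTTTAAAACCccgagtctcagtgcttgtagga
The stretches are chr16:36156691-36156810 (plus strand), chr16:36184092-36184211 (plus), chr16:36277028-36277147 (plus), chr16:36367571-36367690 (minus), chr16:36408364-36408483 (minus) and chr16:36455393-36455512 (minus). The run ended 20 to 24 bases before the start in 5 members and directly at it in Cstdc5. The starts of RefSeq and GENCODE differ for Stfa1, Cstdc5 and Stfa2, and the stretches of Stfa1 and Cstdc5, and most of that of Stfa2, lie inside the gene bounds given above. Among the 32817 promoters of the same table, 11 held this run in their 250 upstream bases on either strand (0.0335%), and Csta3 was another of them. Searched for in the same window on both strands, TATAAA was in 0 of 6 members (12.4% of all promoters), PU.1 (AGGAAGT) in 0 (7.69%), AP-1 (TGANTCA) in 0 (6.75%) and NF-kB (GGGANTTTC) in 0 (0.942%). A C/EBP motif (TTGCNNAA) was in Stfa1 and Cstdc5 (9.57% of promoters), and the half-site of the oestrogen response element (AGGTCA) was in Stfa2 alone among the members (14.0%). These are matches of letters in a short window and not binding sites.

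The table held 2349 cells with 17681092 UMIs on genes, where a UMI stands for 1 captured RNA molecule, and a cell held between 500 and 141565 UMIs (median 4387). From the hashtags, 1059 cells were OVX and 981 sham, with medians of 4812 and 3704 UMIs; 78 cells passed the cutoff for both hashtags and 231 for neither. Levels below are UMIs of a gene per 1000000 UMIs of the same group of cells (CPM), which need no correction for gene length, and each is given with a 95% interval that covers counting error only. Clustering, made without any gene of the stefin family, gave 7 clusters, named here by their leading gene. In 4 of them the 12 neutrophil markers summed to between 126213 and 333342 CPM, and they are called neutrophil-like. They held 2028 cells, of which 987 were OVX and 870 sham. All 12 markers were also found in the Gng11 and Pf4 clusters, at a summed 3470 and 21385 CPM. Most of the sum was S100a8 and S100a9 (117535 and 199145 CPM in the Hist1h1b cluster). Compared with all other cells, 11 of the 12 were higher in the Retnlg cluster and 9 in the Jaml cluster. In the Gm42418 and Hist1h1b clusters 7 and 4 were higher. The label of the sample is macrophage, but in the 4 neutrophil-like clusters the 10 macrophage markers summed to between 53.7 and 139 CPM. Over all 4, F4/80 (Adgre1) stood at 2.49 CPM, C1qa at 0, Msr1 at 13.9 and Arg1 at 23.8 CPM. The sort marker Cd68 stood at 60.7 CPM there and at 53.3 CPM in all cells. The sort was made on protein, whereas these are RNA levels. The Hist1h1b cluster (328 cells) held the granule transcripts, with Ltf at 3392 CPM, Camp at 4240 CPM and the proliferation gene Mki67 at 254 CPM. The Retnlg cluster (860 cells) and the Jaml cluster (604 cells) had Ltf at 207 and 17.8 CPM, and Csf3r stood at 146 CPM in the Hist1h1b cluster and at 700 and 1660 CPM in them. A Gm42418 cluster (236 cells) had fewer UMIs per cell (median 2306) and both granule and mature transcripts. A Gng11 cluster (210 cells) was stromal-like, with the cartilage lubricant Prg4 at 25948 CPM and decorin (Dcn) at 16513 CPM. A Pf4 cluster (76 cells), with the macrophage genes Arg1 and Msr1, and a Gm10800 cluster (35 cells, 67.4% mitochondrial UMIs) were left unnamed.

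Stefin A transcripts made up 146025 UMIs, or 8259 CPM (8217 to 8301), in the whole library. Cstdc4 was the most abundant, with 66693 UMIs or 45.7% of the total, followed by Cstdc5 with 23.9%, Stfa2 with 14.8% and Stfa2l1 with 13.8%. Stfa3 held 1.72% and Stfa1 61 UMIs, or 0.0418%. The first 4 thus had the order Cstdc4, Cstdc5, Stfa2 and Stfa2l1, and the intervals of neighbours in it did not overlap (1209 to 1242 CPM for Stfa2 and 1126 to 1158 CPM for Stfa2l1, the closest pair). Neutrophil-like cells held nearly all of these molecules, with 143367 UMIs or 12734 CPM. The stromal-like cells held 1782 UMIs, or 1.22% of the stefin UMIs, in a cluster with 31.0% of all UMIs. After every cell was thinned to 1000 UMIs, Cstdc4 was seen in 62.2% of neutrophil-like cells and in 3.03% of stromal-like cells. Whether the latter was free RNA in droplets was not tested. Among neutrophil-like cells 16.3% had no stefin UMI, 20.8% showed 1 member and 1.73% all 6.

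Across the stages the members did not move as a block. With both conditions and the unassigned cells together, the ratio of Cstdc4 to Cstdc5 was 0.957 (0.931 to 0.984) in the Hist1h1b cluster, 1.77 (1.74 to 1.80) in the Retnlg cluster and 3.75 (3.64 to 3.86) in the Jaml cluster. The Hist1h1b cluster held 29.3% of all Cstdc5 molecules and 14.7% of all Cstdc4 molecules, and the Jaml cluster 15.7% and 30.8%. Cstdc4 and Cstdc5 were thus close in the granule-rich cluster, and Cstdc4 led in the others. Which of the pair was higher beside granule transcripts depended on how the cells were taken. Pooled over conditions, the Jaml cluster had the highest summed level, at 15781 CPM (15616 to 15949) against 13933 CPM (13832 to 14034) in the Retnlg cluster, and held 23.7% of stefin UMIs in 25.7% of the cells. That rank reflects the pooling. OVX levels were 19718 CPM in the Jaml and 19684 CPM in the Retnlg cluster, and sham levels were lower in the Jaml cluster (4404 against 5943 CPM). Which cluster ranked highest also depended on how cells were divided, and the share of that cluster ranged from 23.2% to 53.2% in the other divisions tried.

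**Figure D1:**
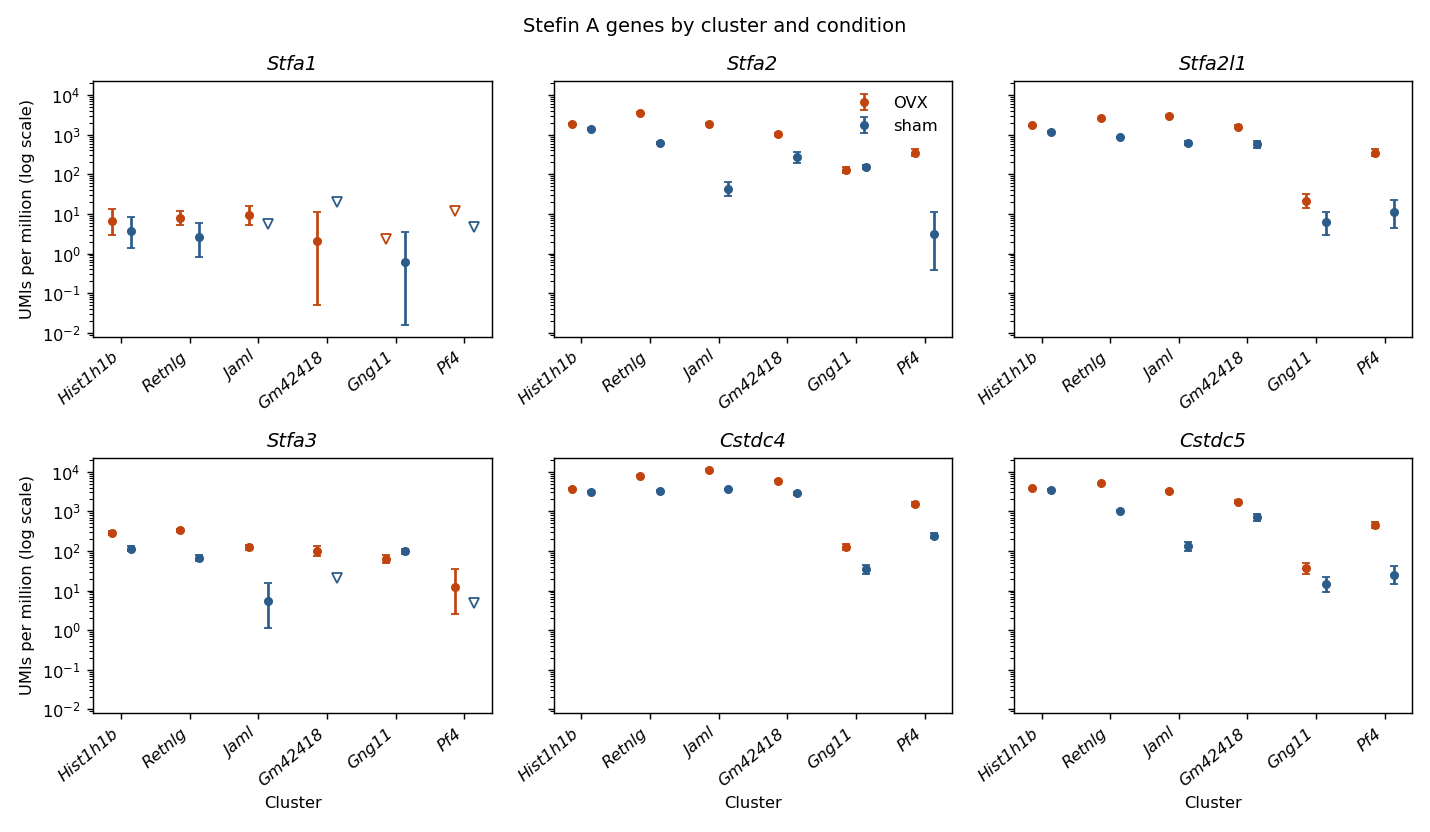
Level of each stefin A gene in 6 clusters, as CPM on a log axis, for OVX (red) and sham (blue) cells, with 95% Poisson intervals as bars; open triangles mark the level of 3 UMIs where none was counted. Stfa2 and Cstdc5 lie close together for both conditions in the Hist1h1b cluster and far apart in the Jaml cluster.

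OVX cells held more RNA of every member. Over all assigned OVX cells the summed stefins stood at 14081 CPM (13998 to 14165), and over sham cells at 4637 CPM (4584 to 4689), a ratio of 3.04. Cstdc4 stood at 6389 and 2165 CPM (2.95-fold), Cstdc5 at 3324 and 1200 CPM (2.77-fold) and Stfa2 at 2157 and 580.0 CPM (3.72-fold). Stfa2l1 followed at 1993 and 618 CPM (3.23-fold) and Stfa3 at 211 and 72.4 CPM (2.91-fold). Stfa1 was counted 48 times in OVX and 12 times in sham (6.15 and 1.86 CPM), and its intervals, 4.54 to 8.16 and 0.960 to 3.24, did not overlap either. Of the 7170 genes that reached 10 CPM in either condition, 1.73% were 2-fold or more higher in OVX and 4.03% 2-fold or more lower. The 5 members that reached 10 CPM were all among the higher ones, with a median log2 difference of 1.56 against -0.23 over all genes, as their choice from these data implies. Within neutrophil-like cells, where 2.62% of 5721 genes were 2-fold higher and 2.05% 2-fold lower, the same 5 passed, and the summed ratio was 2.51. The remaining cells, stromal-like ones above all, took a larger part of the sham library, with 24.8% of sham and 16.6% of OVX UMIs in the Gng11 cluster.

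The ratio of pooled OVX to pooled sham molecules differed between the stages, more than the typical cell did. In the granule-rich Hist1h1b cluster OVX cells had summed stefins of 11460 CPM (11268 to 11655), sham cells of 9319 CPM (9169 to 9471), a ratio of 1.23. In the Retnlg cluster they stood at 19684 CPM (19525 to 19844) and 5943 CPM (5835 to 6053), a ratio of 3.31, and in the Jaml cluster at 19718 CPM (19501 to 19937) and 4404 CPM (4231 to 4583), a ratio of 4.48. From the first to the last of these clusters the pooled level was therefore higher in OVX cells and lower in sham cells. The median share of a cell's UMIs ran otherwise, at 0.556% in OVX and 0.106% in sham in the Hist1h1b cluster, 1.11% and 0.183% in the Retnlg cluster, and 0.946% and 0.128% in the Jaml cluster. By this measure OVX cells stood several times above sham cells at every stage, the granule-rich one included. In the Gm42418 cluster the pooled ratio lay between those of the Hist1h1b and Retnlg clusters, at 2.39. Its levels, 10450 CPM (OVX) and 4380 CPM (sham), were the lowest of the 4 neutrophil-like clusters. However, 10 of its 79 sham cells held 71.7% of the sham molecules, and without the 10 richest cells of each condition the ratio was 4.81. The unnamed Pf4 cluster, with 21 OVX and 48 sham cells, had 2711 CPM (2509 to 2924) and 284 CPM (244 to 328), but 10 OVX cells held 99.9% of the OVX molecules. Its median share per cell was 0.0050% in OVX and 0.00695% in sham, 47.6% and 43.8% of the cells had none, and without the 10 richest cells of each condition the ratio was 0.167, on 1 OVX UMI.

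In the Jaml cluster Stfa2 and Cstdc5 showed the widest gap, setting aside Stfa3 and Stfa1, with 3 and 0 sham UMIs there. Over all neutrophil-like cells the order was another. The ratio was 3.37 for Stfa3, 3.20 for Stfa2, 2.95 for Stfa1, 2.62 for Stfa2l1, 2.42 for Cstdc4 and 2.26 for Cstdc5. In the Hist1h1b cluster Stfa3 had the highest ratio, at 2.46. Stfa2 went from 1404 CPM (1346 to 1464) in sham cells of the Hist1h1b cluster to 630 CPM (596 to 667) in the Retnlg cluster and 43.5 CPM (27.9 to 64.8) in the Jaml cluster. In OVX cells it went from 1901 CPM (1823 to 1981) to 3625 CPM (3557 to 3694) and back to 1909 CPM (1842 to 1978). The ratio of OVX to sham was thus 1.35 in the Hist1h1b cluster, 5.75 in the Retnlg cluster and 43.9 in the Jaml cluster, the last resting on 24 sham UMIs against 3045 in OVX. Cstdc5 followed the same course, from 3504 CPM (3412 to 3598) through 1041 CPM (996 to 1088) to 131 CPM (102 to 164) in sham, and from 3864 CPM (3752 to 3977) through 5069 CPM (4989 to 5151) to 3304 CPM (3215 to 3394) in OVX. Its ratios were 1.10, 4.87 and 25.3. For both genes the sham level in the Jaml cluster was a small part of that in the Hist1h1b cluster (0.0310 times for Stfa2 and 0.0373 times for Cstdc5).

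Cstdc4, in contrast, was not lower in sham cells of the later clusters. It stood at 3097 CPM (3011 to 3185) in the Hist1h1b cluster, 3347 CPM (3266 to 3429) in the Retnlg cluster and 3598 CPM (3441 to 3759) in the Jaml cluster. In OVX cells it went from 3699 CPM (3590 to 3811) to 8011 CPM (7910 to 8113) and 11381 CPM (11217 to 11548), so the ratios were 1.19, 2.39 and 3.16. In the Hist1h1b cluster 10 sham cells held 61.0% of its molecules, and without the 10 richest cells of each cluster the sham levels were 1344, 2840 and 2580 CPM. Stfa2l1 lay between these patterns, with sham levels of 1197, 855 and 627 CPM, OVX levels of 1711, 2642 and 2989 CPM and ratios of 1.43, 3.09 and 4.76. Stfa3 differed by over 2-fold already in the Hist1h1b cluster, with OVX at 279 CPM (249.5 to 311) and sham at 113 CPM (97.1 to 131). In the Retnlg cluster it stood at 329 and 67.4 CPM (4.88-fold), and in the Jaml cluster it was counted 200 times in OVX and 3 times in sham. Stfa1 was counted 8 and 6 times in the Hist1h1b cluster, 24 and 5 times in the Retnlg cluster, and 15 and 0 times in the Jaml cluster, where 0 of 551485 sham UMIs has an upper bound of 6.69 CPM.

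A few cells carried much of the signal, and more of it in sham than in OVX. In the Hist1h1b cluster the 10 sham cells richest in stefin UMIs, of 164, held 51.5% of them, and the 10 richest OVX cells, of 118, held 48.7%. Without those cells the ratio there was 1.38, and with every cell given the same weight it was 1.46. In the Jaml cluster the 10 richest sham cells held 83.3% of Stfa2 and 68.1% of Cstdc5, and the 10 richest OVX cells 45.4% and 34.9%. Leaving out the 10 richest cells of each condition for each gene moved the Jaml ratio of Cstdc5 from 25.3 to 50.6 and that of Stfa2 to 145 (on 4 sham UMIs), while equal weight per cell gave 17.2 and 30.1. In the Retnlg cluster the 10 richest sham cells, of 413, held 73.1% of Stfa2, 54.1% of Cstdc5 and 77.9% of Stfa3. The 10 richest OVX cells there, of 367, held 28.4%, 27.7% and 47.8%. Without the 10 richest cells the ratios there were 15.5 for Stfa2, 7.75 for Cstdc5 and 11.97 for Stfa3, and equal weight per cell gave 9.29, 7.06 and 4.04. The Jaml ratios also moved with the division of cells, from 6.0 to 52.9 for Stfa2 and from 3.32 to 29.3 for Cstdc5, over the 6 of 7 other divisions with a cluster led by Jaml. The lowest value in both cases came from the division in which stefin genes themselves took part. In the 5 divisions with a cluster led by Hist1h1b or Hist1h3c the summed ratio ranged from 1.10 to 1.40. In the other divisions the granule cluster (Ifitm6, Ltf and Camp, with 1000 variable genes) had 1.80, and with 6 clusters a Pf4-led cluster of 420 cells had 1.46.

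Hashtag shares of the clusters differed too, so the levels were also set to 1 composition. The Jaml cluster took 34.8% of the OVX pool (32.0 to 37.8) and 21.8% of the sham pool (19.3 to 24.5), while the Hist1h1b cluster took 11.1% (9.31 to 13.2) and 16.7% (14.4 to 19.2). When OVX levels per cluster were weighted by the sham shares of UMIs, the summed stefins stood at 10995 CPM, 2.37-fold above sham. Sham levels weighted by the OVX shares gave 4913 CPM, or 1.06-fold of the sham level. By member the weighted ratio was highest for Stfa2 (3.12), then Stfa3 (2.72), Stfa1 (2.65), Stfa2l1 (2.50), Cstdc5 (2.37) and Cstdc4 (2.13).

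Single cells overlapped widely in spite of these ratios. Stefins took a median of 0.881% of the UMIs of an OVX neutrophil-like cell (quartiles 0.276 and 2.24) and 0.141% of a sham one (quartiles 0.0106 and 0.704). The highest share was 11.5% in OVX and 8.91% in sham. No stefin UMI was seen in 8.0% of OVX and 24.5% of sham cells, and 80.7% of OVX cells lay above the sham median. The 10% of neutrophil-like cells richest in stefins held 60.3% of the stefin UMIs. After thinning to 1000 UMIs, Stfa2 was seen in 37.0% of OVX and 10.1% of sham neutrophil-like cells, Cstdc5 in 51.0% and 20.7%, and Cstdc4 in 76.0% and 48.4%. Without thinning the shares were 49.4% and 18.5%, 63.9% and 31.5%, and 83.4% and 61.3%.

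**Figure D2:**
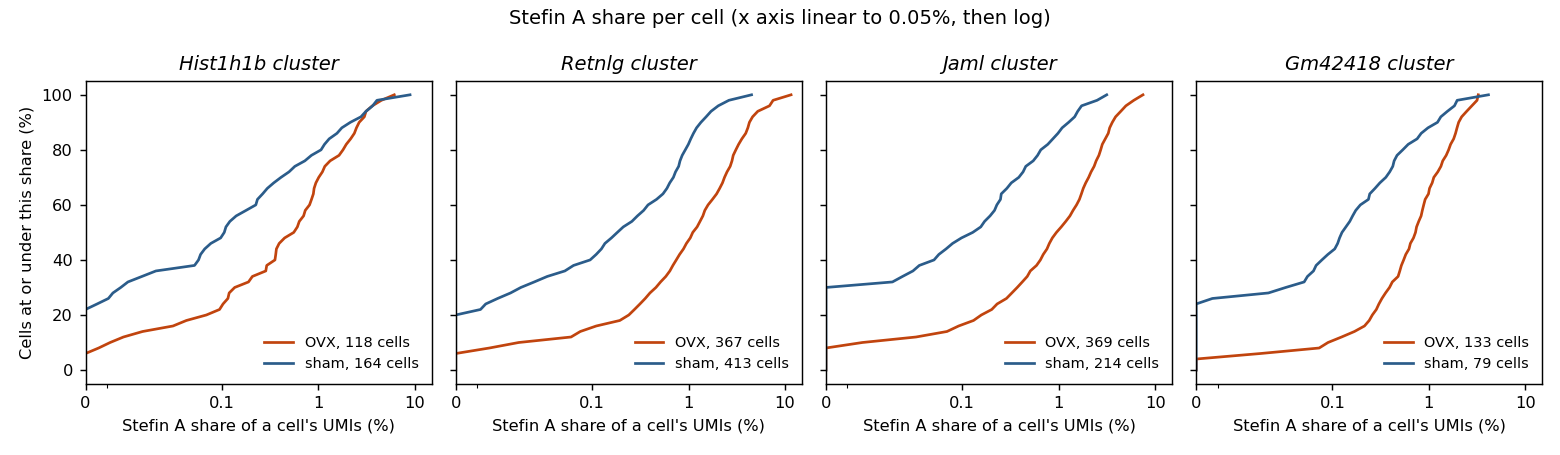
Cumulative share of cells (y axis, percent) against the part of a cell's UMIs that came from the 6 stefin A genes (x axis, percent, linear to 0.05 and logarithmic above), for OVX (red) and sham (blue) cells of the 4 neutrophil-like clusters. The sham curve lies to the left of the OVX curve over most of its length in each cluster, and in the Hist1h1b cluster the highest cell is a sham one, at 8.91% against 6.12% in OVX.

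The mixture of transcripts differed between the conditions more in the Retnlg and Jaml clusters than over all neutrophil-like cells. Over all of these Cstdc4 held 45.4% of stefin UMIs in OVX and 47.0% in sham, Cstdc5 23.7% and 26.3%, and Stfa2 15.2% and 11.9%. In the Gm42418 cluster Cstdc4 held 57.1% in OVX and 64.7% in sham, and Cstdc5 16.87% and 16.25%. In the Hist1h1b cluster the shares of the abundant members were close, with Cstdc4 at 32.3% of stefin UMIs in OVX and 33.2% in sham, Cstdc5 at 33.7% and 37.6%, and Stfa2 at 16.6% and 15.1%. Stfa3 differed there, at 2.43% (2.18 to 2.71) and 1.21% (1.04 to 1.40). In the Retnlg cluster Cstdc4 held 40.7% in OVX and 56.3% in sham. By the Jaml cluster sham cells were left with Cstdc4 at 81.7%, Cstdc5 at 2.96% and Stfa2 at 0.988%, while OVX cells had 57.7%, 16.8% and 9.68%. The ratio of Cstdc4 to Cstdc5 there was 27.6 (21.8 to 35.4) in sham and 3.44 (3.34 to 3.55) in OVX, against 0.884 (0.850 to 0.919) and 0.957 (0.918 to 0.998) in the Hist1h1b cluster. Of the 4 abundant members Stfa2l1 had the steadiest share, between 12.8% and 15.3% in all 4 neutrophil-like clusters and both conditions. Its near copy Stfa2 ranged from 0.988% to 18.4%.

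**Figure D3:**
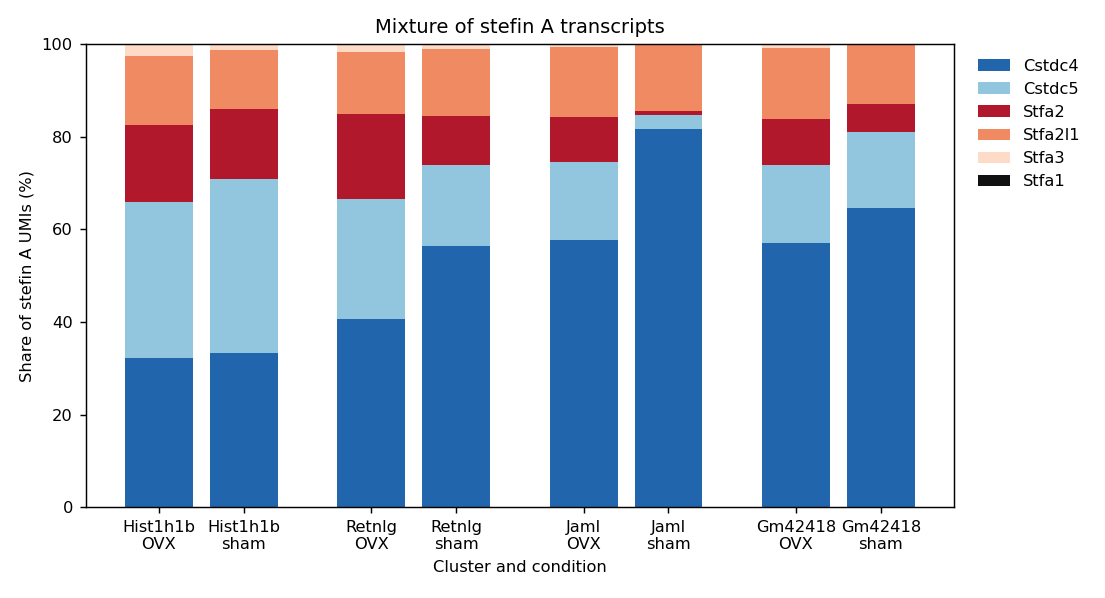
Share of each stefin A gene in the stefin UMIs (y axis, percent) in OVX and sham cells of the 4 neutrophil-like clusters, stacked to 100%. The 2 bars of the Hist1h1b cluster differ little in their large fields, and the sham bar of the Jaml cluster is 81.7% Cstdc4.

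An ordering by granule transcripts within the neutrophil-like cells gave the lowest ratio at the same end, but not a steady order. Neutrophil-like cells were divided into 5 equal parts by the percentage of their UMIs from Ltf, Camp, Ngp, Lcn2 and Chil3, of which part 5 holds the most. Cells of the Hist1h1b cluster, which has Ltf, Camp and Ngp among its leading genes, made up 68.4% of part 5. The low ratio in part 5 thus comes largely from the same cells and is no independent view. In part 5 (144 OVX and 207 sham cells) OVX cells had summed stefins of 12182 CPM and sham cells of 9249 CPM, a ratio of 1.32. The ratio was 3.68 in part 4, 4.39 in part 3, 3.42 in part 2 and 2.69 in part 1. The median granule percentage was 0 in part 1 (highest 0.0256) and 0.0580 in part 2, so few molecules separate these parts. With Ltf, Camp and Ngp alone the ratio in part 1 was 4.33, and in part 5 it was 1.26. Equal weight per cell gave 1.76 in part 5. In sham cells Cstdc5 was lower at each step from part 5 to part 1, at 3470, 905, 606, 393 and 195 CPM, while OVX cells had 3933, 4539, 5085, 3565 and 1939 CPM. Stfa2 in sham was not lower at each step, at 1405, 657, 296, 343 and 83.0 CPM. In OVX it stood at 1920 CPM in part 5, 3416 in part 4, 3471 in part 3 and 772 in part 1. Few cells carried these values. In part 4 the 10 richest sham cells held 94.1% of Stfa2 and 74.1% of Cstdc5, against 42.7% and 40.4% in OVX. In part 1 they held 81.1% and 77.0%, against 78.3% and 70.3% in OVX. Cstdc4 in OVX cells stood at 4307 CPM in part 5, 7457 in part 4, 9537 in part 3, 10901 in part 2 and 8883 in part 1, so all 3 genes were highest in part 2 or part 3, and in sham cells it stood at 3049 CPM in part 5, 2478 CPM in part 4 and 4279 CPM in part 1. Parts also differed in depth, with a median of 2421 UMIs per cell in part 1 and 7695 in part 5. With every cell thinned to 1000 UMIs the summed ratio was 1.75 in part 5 and 2.65 in part 1, a smaller gap. Thinning also gives each cell the same weight. Equal weight without thinning gave 1.76 in part 5 and 2.50 in part 1. The thinned parts were ranked anew and leave out cells under 1000 UMIs, so they are not the same cells. The part played by depth was not tested.

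**Figure D4:**
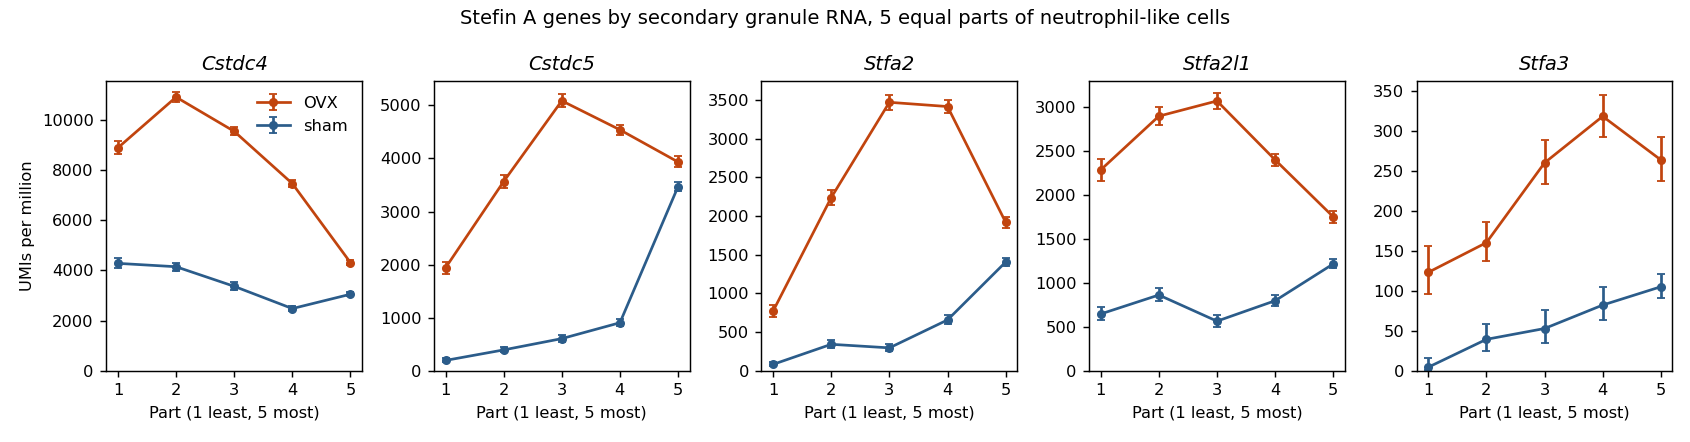
Level of 5 stefin A genes (y axis, CPM) in 5 equal parts of the neutrophil-like cells by content of secondary granule transcripts (x axis, part 1 least, part 5 most), for OVX (red) and sham (blue), with 95% Poisson intervals. The lines come nearest at part 5 for Cstdc5, at 3933 and 3470 CPM, and stay apart elsewhere.

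From cell to cell the members varied together in a graded way. Across the 2028 neutrophil-like cells Pearson's r of log-scaled counts had a median of 0.385 over the 15 pairs, from 0.157 to 0.691, and all cells share 1 library. The highest values were those of Stfa2 with Cstdc5 (0.691), Stfa2l1 with Cstdc4 (0.621), Stfa2l1 with Cstdc5 (0.542) and Stfa2 with Stfa2l1 (0.523). Within OVX cells the median was 0.354 and within sham cells 0.188, and Stfa2 with Cstdc5 remained the highest pair at 0.688 and 0.562. Thinning to 1000 UMIs per cell, which left 1892 cells, lowered the median to 0.309 and these 2 leading pairs to 0.620 and 0.555. The pairs with Stfa1 rest on 60 UMIs before thinning and on 5 after it, when they were between -0.01 and 0.07. Over the 10 pairs without Stfa1 the median went from 0.444 to 0.354.

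The pairs were also set beside their position and likeness of sequence, after the values were known. Leaving Stfa1 aside, the 4 pairs on the same strand, which lie 22.3 to 82.8 kb apart, had r between 0.437 and 0.691. The 6 pairs on opposite strands, 171 to 289 kb apart, had r between 0.203 and 0.542. Stfa2l1 and Cstdc4, neighbours on the plus strand with 73.8% identical transcript bases, reached 0.621. Stfa2l1 and Stfa2, which share 95.7% of their aligned bases but lie 242 kb apart, reached 0.523. Cstdc5 and Stfa2, neighbours on the minus strand with 77.2% identity, reached 0.691, and Stfa3, the next gene on that strand, reached 0.451 with Stfa2 against 0.203 with Cstdc4. The ranges overlap, and more so within sham cells, where Stfa2 with Stfa3 on the same strand (0.188) was below Stfa2l1 with Cstdc5 (0.379) and with Stfa2 (0.360) on opposite strands.

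**Figure D5:**
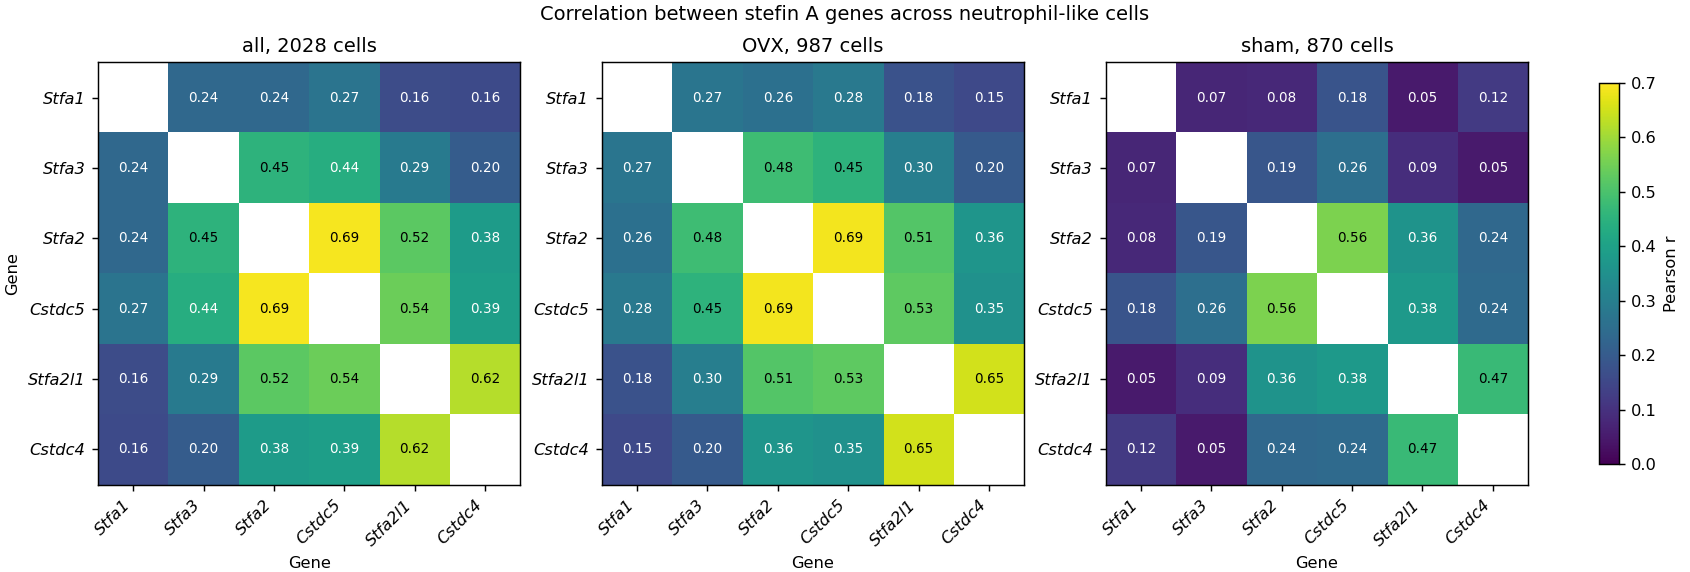
Pearson's r between the 6 stefin A genes across neutrophil-like cells, for all 2028 cells, for 987 OVX cells and for 870 sham cells (colour scale and printed values; both axes list the genes). The brightest fields are Stfa2 with Cstdc5 and Stfa2l1 with Cstdc4 in each panel.

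The genes outside the family with the most similar pattern were found by r with the summed stefins, among 5269 genes seen in at least 5% of neutrophil-like cells. Wfdc21, a gene of the whey acidic protein family whose members include protease inhibitors, was first at 0.399, followed by the chemokine Ccl6 (0.296), the calcium-binding S100a6 (0.272) and the phospholipase Pla2g7 (0.265). The next were Zfp36l1, S100a8, Mmp9, Fam20c, C3 and Fam162a, from 0.260 down to 0.233. Among neutrophil-like cells Wfdc21 had 3413 CPM (OVX) and 806 CPM (sham) (4.23-fold), and its r within sham cells alone was 0.190. These values pool conditions that differ in level, and within each the order was another. In OVX cells S100a8 (0.357) was above Wfdc21 (0.344) and S100a6 (0.308), and in sham cells S100a8 (0.222), S100a6 (0.213) and Ccl6 (0.209) were above Wfdc21. Pla2g7 stood at 0.174 in OVX and 0.0964 in sham. S100a8 shared the pattern between cells (0.255) with levels of 111404 and 111294 CPM, which differ by a factor of 1.00. The lowest pooled r belonged to Thbs1, thrombospondin 1, at -0.235 (-0.15 within OVX and -0.018 within sham cells), for which OVX cells had 613 CPM and sham cells 2284 CPM. Lmnb1, a lamin of the nuclear envelope, was at -0.16 within OVX and -0.15 within sham cells, below Thbs1 in both.

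Stromal-like cells held a different set of family transcripts. Of the 12 neutrophil markers, 11 were found there at 0.656% to 2.29% of their neutrophil-like level. The exception, Lcn2, stood at 48.0%. Camp, a granule gene outside the 12, had 354 CPM in stromal-like and 1256 CPM in neutrophil-like cells. The median was 19996.5 UMIs per stromal-like cell and 3972 per neutrophil-like cell. Whether any of these molecules were free RNA in droplets was not tested. Stfa2l1 (0.523%), Cstdc5 (0.641%) and Cstdc4 (0.918%) were in or below the range of the 11 markers, as was Cstdc6 (0.586%). Stfa2 stood above it at 7.52% (7.0 to 8.08), with 139 CPM in the stromal-like and 1848 CPM in the neutrophil-like cells. Stfa3 reached 60.0% (55.1 to 65.1), with 104 and 173 CPM. Csta3, which lies between Cstdc4 and Csta2, was higher in stromal-like cells, at 228 CPM (215 to 241) against 15.3 CPM.

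These molecules sat in few stromal-like cells. Of 210 cells, 57 had a UMI of Stfa2, 67 of Stfa3 and 55 of Csta3, and 10 cells held 83.8% of the Stfa2, 57.0% of the Stfa3 and 75.8% of the Csta3 molecules. A single cell held 71 of the 567 Stfa3 UMIs. In the 10 cells with the most Stfa3, S100a8 stood at 456 CPM, against 766 CPM in the other 200, and Prg4 at 28554 CPM against 25581 CPM. In the 10 cells with the most Stfa2, S100a8 stood at 1894 CPM against 595 CPM, and Cstdc4 at 246 CPM against 31.9 CPM, while Prg4 was at 25837 CPM against 25960 CPM. Sox9, another stromal marker, was lower in both sets of 10 cells. It stood at 616 CPM against 1140 CPM for Stfa3 and at 801 CPM against 1106 CPM for Stfa2. The stromal markers Dcn, Pdpn, Col1a1 and Col1a2 were higher in both sets. Stfa3 and Csta3 had r = 0.439 across the 210 cells, with 39 cells holding both. Between the conditions the 38 OVX stromal-like cells had Stfa3 at 64.1 CPM (51.1 to 79.5), the 54 sham ones at 97.3 CPM (82.7 to 114), and Stfa2 at 130 CPM (111 to 151) and 154 CPM (135 to 175). With equal weight per cell the ratio of OVX to sham was 0.804 for Stfa3 and 1.36 for Stfa2, so the direction of the latter turned.

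Over all neutrophil-like cells, the other family genes and the proteases at 10 CPM or more differed less than the members, apart from Csta3. Of the 4 neighbours, Csta1 and Csta2 stayed under 1 CPM in either condition. Among neutrophil-like cells Cstdc6 had 37.2 CPM (OVX) and 22.1 CPM (sham), a ratio of 1.69. Csta3 had 20.03 and 5.69 CPM (3.52-fold), on 24 sham UMIs. Over all assigned cells the ratios were 2.05 for Cstdc6 and 1.84 for Csta3. By stage Cstdc6 went much as Cstdc5 did. Its transcript is 95.3% identical to that of Cstdc5, and 13.5% of its end windows were found unchanged in Cstdc5. Counts of Cstdc6 are therefore uncertain beside the far more abundant Cstdc5. Cstdc6 had 44.1 (OVX) and 36.9 CPM (sham) in the Hist1h1b cluster, where the intervals overlapped. In the Retnlg cluster it had 44.1 and 17.0 CPM, and in the Jaml cluster 25.1 and 1.81 CPM, on 1 sham UMI. Of 8 other cystatins, Cstb (stefin B, found in most cells) and Cst3 (cystatin C, secreted) reached 10 CPM and neither passed 2-fold in either direction. The OVX neutrophil-like cells had Cstb at 731 CPM, the sham ones at 897 CPM (a ratio of 0.815), and by stage it was highest in the Jaml cluster, at 1451 CPM against 374 CPM in the Hist1h1b cluster. Of a list of 12 lysosomal proteases, the cathepsins and legumain (Lgmn), 7 reached 10 CPM in neutrophil-like cells, 1 passed 2-fold upward and none downward, with a median log2 difference of 0.33. That gene was Ctsc, the cathepsin that activates the serine proteases of neutrophil granules, at 152 and 74.0 CPM (2.05-fold). Among the cathepsins that stefins block, Ctsb stood at 313 and 189 CPM (1.65-fold), Ctsl at 218 and 158 CPM (1.38-fold), Ctss at 47.3 and 44.1 CPM (1.07-fold) and Ctsh at 38.1 and 61.7 CPM (0.618-fold). Over all assigned cells 9 of the 12 reached 10 CPM and 0 passed 2-fold.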

How the data were processed

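Omacs pooled from OVX and sham mice were hashed and captured with the 10x 3′ v3.1 kit. The authors deposited UMI counts per gene and barcode, without normalization, made with Cell Ranger and mm10 (6.0.0 in the file header, 6.0.1 in the submitters' processing notes). Hashtag counts were read from the same table, and the separate hashtag library was not analysed here. Barcodes were assigned with HTODemux (Seurat 5.3.0, R 4.3.3, quantile 0.99). The alternative required 80% of at least 10 hashtag UMIs. Cells were clustered with scanpy 1.11.5 (igraph 0.11.9) without stefin family genes, using 10000 UMIs per cell, 2000 variable genes, 30 components, 15 neighbours and Louvain resolution 0.4. Ratios are folds of CPM computed from the deposited counts. Intervals at 95% are Poisson for CPM and Clopper-Pearson for shares and for ratios of counts, and molecules of 1 cell are not independent, so they cover counting error only. A change was counted at 2-fold among genes at 10 CPM or more. With 1 pool per condition no test was possible, and p-values were not computed. Coordinates follow GENCODE M21.

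The members and all gene lists were chosen with earlier results of these data known. The named genes are the members, the other family genes, fixed lists where a result turned on them, the 10 genes with the highest r and the leading genes of clusters. Doublets were searched for with Scrublet, which marked 0 of 2349 barcodes, so no barcode was removed. Cells with both hashtags or neither were left out of the OVX and sham values. They stayed in the clustering and in values pooled over conditions, such as the correlations across all neutrophil-like cells. The calculations were tested on simulated data.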

Additional observations from a re-analysis of the deposited data

Results flagged for a closer look

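Stfa3 differed in direction between cell classes. In the stromal-like Gng11 cluster its OVX level was 0.659 of the sham level, on 83 and 156 UMIs, whereas it was 4.88-fold higher in OVX in the Retnlg cluster. Few cells carried the stromal-like value: 10 cells of each condition held 96.4% (OVX) and 98.1% (sham) of these UMIs, and equal weight per cell gave 0.804. Of the 210 cells in the cluster, 38 were OVX and 54 sham, and the others had both hashtags or neither. Stfa3 stood at 127 CPM in the cells with neither hashtag and at 82.5 CPM in the assigned ones. A single cell of the 210 held 71 of the 567 UMIs counted there, and its condition is not given here. The difference between the clusters was not tested, since there was 1 pool per condition.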

How the results depend on the processing

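Over all assigned cells, the ratio of OVX to sham stayed above 1 for each member and for the sum under each alternative run. The ratio of the summed stefins was 3.55 with scaling by the median of gene ratios. That median was -0.23 on the log2 scale, so the scaling raised the ratio of every gene. The summed ratio was 3.11 with equal weight per cell, 3.95 with the 80% hashtag rule and 2.51 in neutrophil-like cells. Without the 10 cells richest in stefins in each condition, chosen after seeing the data, it was 3.62. At the sham composition it was 2.08 after dropping 185 barcodes under 500 genes or over 10% mitochondrial UMIs, 2.42 with 6 clusters, 2.23 with 1000 variable genes, 2.43 with Leiden (leidenalg 0.10.2), 1.66 with stefin genes kept in the clustering, 2.58 with the 80% hashtag rule and 2.08 with 8 clusters, the last chosen after seeing the data. The share of stefin UMIs in the highest cluster was 42.4% with the barcode filter, 23.2% with 6 clusters, 42.3% with 1000 variable genes, 23.9% with 30 neighbours, 28.1% with Leiden, 53.2% with stefin genes kept and 38.3% with 8 clusters. The number of members past 2-fold was 5 or, with no filter, 6, the last being Stfa1 on 48 OVX and 12 sham UMIs. At 10 CPM or more, 1.73% of all 7170 genes were 2-fold higher and 4.03% 2-fold lower. The share over all genes was not computed for the other settings. The median r was 0.309 after thinning to 1000 UMIs. It could not be had at 500 UMIs, where Stfa1 had none left. The median of the 10 pairs without Stfa1 went from 0.444 to 0.354 at 1000 UMIs and 0.309 at 500 UMIs. In the part with the least granule RNA the ratio was 4.33 with Ltf, Camp and Ngp alone, and in the part with the most it was 1.26 with these and 1.75 after thinning. The causes of these moves were not tested. Of 24 values for single members, 19 moved beyond their counting interval and 0 changed direction. Removing Scrublet doublets changed nothing because none was marked. No paired analysis was possible because each condition is 1 pool. Depth limits Stfa1 above all, with 61 UMIs in all.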
